A study of Mus musculus with 20 samples.

Results

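Introns that lie after the stop codon, in the 3' untranslated region (3' UTR), were described in nascent RNA of murine erythroleukemia (MEL) cells. An intron was a member of the set when it lay wholly downstream of the coding end of the transcript named for it in the deposited splicing table, in the GENCODE mouse release 21 annotation on GRCm38 (mm10). This rule gave 249 introns in 222 genes, 0.362% of the 68794 introns in the table. The same 222 genes were 2.64% of the 8397 transcripts listed, with 1 transcript per gene. The coding introns of the same genes, 1853 introns in 204 genes, served as the comparison; the other 18 genes had no coding intron in the table.

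MEL cells are a transformed line of mouse red cell precursors that begin to mature when dimethyl sulfoxide (DMSO) is added. Chromatin-bound RNA was purified, depleted of polyadenylated and ribosomal RNA, and sequenced as long reads. The uninduced group was untreated and the induced group had been kept in 2% DMSO for 5 days, with 2 biological replicates on 2 PacBio instruments in each. Both groups are of this 1 line. The table gives each condition as 1 pool of reads, so the values carry no error between replicates, and each test compares 2 pools or 2 sets of introns within a pool. The other 12 samples of the series, which are long reads from cells with an inserted globin gene and run-on sequencing libraries, were not analysed here.

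During splicing an exon junction complex is left on the RNA just upstream of each junction. In cytoplasmic translation the ribosome removes these complexes up to the stop codon, and a complex that remains well downstream can trigger nonsense-mediated decay. A junction more than about 50 nt after the stop codon is the usual rule of thumb for that risk, and an intron closer to it than this is generally tolerated. Several RNA-binding proteins, the hnRNP family among them, are known to have alternative introns in the 3' UTR.

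The splice sites of the members with the most reads, and of those that differed in the tests below, are shown first. They are taken from the deposited table of splicing intermediates, which holds 31 of the 249 members. In all 31 the exon bases matched the annotated transcript. Positions are 1-based and inclusive on GRCm38, and every interval is an intron in the 3' UTR of the gene's named transcript. Capitals mark the first 2 and the last 2 intron bases. The 5' splice sites, 3 exon bases and then intron bases, read 5' to 3' on the gene's strand, were:
Rps3 intron 6, minus strand, chr7:99478952-99479273: cagGTatgt
Rpl9 intron 7, minus strand, chr5:65388442-65388561: cagGTgggt
Rpl7 intron 6, minus strand, chr1:16101360-16101726: aagGTaaga
Rps25 intron 4, plus strand, chr9:44410053-44410145: cagGTggga
Rps28 intron 3, minus strand, chr17:33823117-33823196: ctgGTgggt
Rac2 intron 6, minus strand, chr15:78561486-78561905: gggGTatta
Ccdc186 intron 4, minus strand, chr19:56790630-56790918: cagGTgcca
Top2a intron 35, minus strand, chr11:98993414-98993763: cagGTtagt
Hsbp1 intron 3, plus strand, chr8:119345734-119348035: aagGTgagg
Glo1 intron 4, minus strand, chr17:30597873-30600038: gcaGTgcgt
Rbm3 intron 6, minus strand, chrX:8142956-8143250: aatGTaggt
Hnrnph1 intron 14, plus strand, chr11:50385191-50385776: tagGTaaat
In the Hnrnph1 line, added after its values were seen, the 3 exon bases tag are the stop codon itself, so the intron starts 0 nt after it. Rpl7, a large-subunit ribosomal protein gene, has its junction 1 nt and Rac2, a signalling protein of blood cells, 2 nt after the stop codon.

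The matching 3' splice sites, intron bases and then 3 exon bases, are given for the introns in that table that passed the threshold in a test described below:
Rpl9 intron 7: catgtgtgtttgttttacAGttc
Rps25 intron 4: tttttttgtttgttttacAGgtt
Rps28 intron 3: atgcttgggtctgtttacAGggt
Rac2 intron 6: ctctgctgtctcccttccAGgtg
Ccdc186 intron 4: aaccaccgtcctttccttAGtga
Top2a intron 35: aacatggtccttgttttcAGttt
Rbm3 intron 6: ctacctcttactattctcAGata
The deposited score of the 5' site, whose program is not given in the sources used here, was 1.66 at Rac2, the lowest of the 31 members, and 3.75 at Ccdc186. It was 8.02 at Top2a, 6.71 at Rps25, 6.29 at Rps28, 8.56 at Rpl9 and 5.12 at Rbm3. The median was 8.56 over the 31 members and 8.69 over the 112 coding introns that the table lists for the genes of these 31. The 3' site scores had a median of 10.4 in the members and 8.53 in those coding introns, with quartiles of 8.08 to 11.9 and 6.84 to 10.1. These 31 are deeper members, each with at least 17 reads over both pools.

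Most 3' UTR introns sat very close to the stop codon. The exonic distance from the end of the stop codon to the junction had a median of 20 nt, with quartiles of 8 and 37 nt and a range of 0 to 3630 nt. For 204 members (81.9%) it was at most 50 nt, and for 36 at most 3 nt. In 5 genes, Hnrnph1, Krtcap3, Phf6, Scarb1 and Vps37a, the intron began directly after the stop codon. Of the 45 members over 50 nt away, 28 were coding introns in another annotated transcript and 17 were not, and 16 of the 45 belonged to 1 gene, Gm38394. Counts fell from 72 introns within 10 nt to 12 between 41 and 50 nt and to 1 between 51 and 60 nt.

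**Figure D1:**
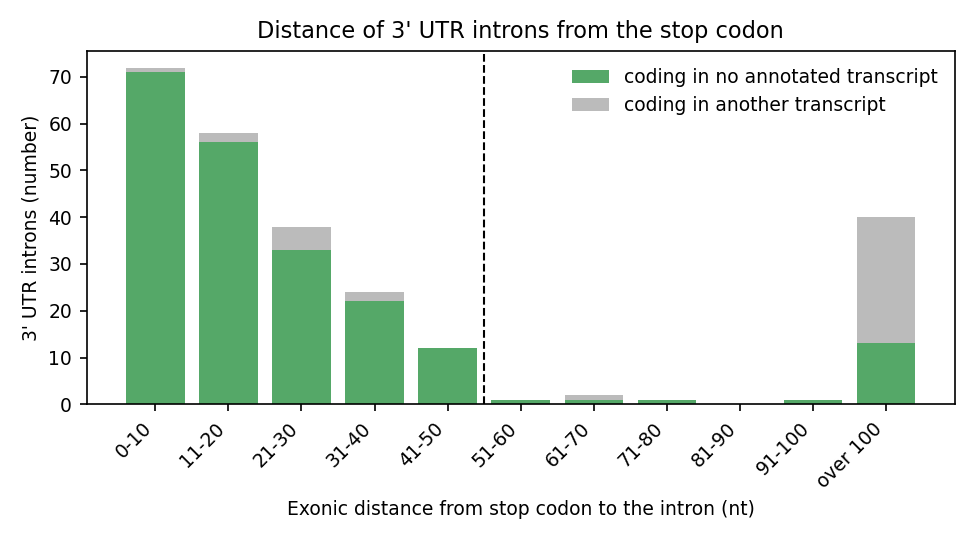
Number of 3' UTR introns by exonic distance from the stop codon to the junction in nt, with introns that are coding in another annotated transcript in grey and the dashed line at 50 nt. The bars fall from 0-10 nt to 41-50 nt, and 204 of 249 introns lie left of the line. The last bar collects all distances over 100 nt.

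Of the 222 genes, 216 had 1 such intron, and 222 of the 249 introns were the last intron of their transcript. The named transcript was annotated as protein coding for 241 members and as a target of nonsense-mediated decay for 8, which were 3 introns of Glo1 and 5 of Pggt1b. For 211 members the intron was coding in no annotated transcript, and for 38 it was coding in another one. Gm38394 had 16 members, and 14 of them were coding in transcripts of Zc3h11a at the same place, so the reads of these genes cannot be told apart. An intron present in every annotated transcript that spans it is called constitutive here. That was the case for 53.0% of the members, 71.5% of the coding introns and 56.4% of the last coding introns of the same genes. Another annotated transcript covered the whole intron as exon at 46 members. Members had a median length of 1037 nt (quartiles 449 and 2302 nt), against 1193 nt for the coding introns.

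Depth was low. Of the members, 203 had uninduced and 147 had induced reads (medians of 3 and 2 where there were any), and 19 members had none in either pool. At least 10 reads were present at 53 members of 45 genes in the uninduced pool and at 18 members of 15 genes in the induced pool. Of the members, 13 reached this in both pools and 191 in neither. The deepest was Rps3 intron 6, with 214 and 50 reads. Splicing was read as coSE, the co-transcriptional splicing efficiency, which is the number of spliced reads divided by spliced plus unspliced reads at an intron.

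Most well-covered 3' UTR introns were already spliced in nascent RNA. With at least 10 reads, their median coSE was 0.909 (uninduced) and 0.908 (induced), against 0.920 and 0.927 for the coding introns of the same genes. In the uninduced pool 5 of 53 members (9.43%) were under 0.5, as were 9.11% of the coding introns. Among induced reads 3 of 18 members (16.7%) and 7.46% of the coding introns were under 0.5. The 5 were in Ccdc186, Hnrnpa3, Hnrnpdl, Top2a and Vamp5, and the 3 in Hnrnpa2b1, Hnrnph1 and Rps28. All 8 of these introns were absent from some annotated transcripts of their genes, as were most members at this depth. Of the members tested against their gene's coding introns below, 17 of 50 (uninduced) and 5 of 15 (induced) were in all spanning transcripts. Means depended on which coding introns were compared. The members had means of 0.813 and 0.781, and all coding introns of member genes with at least 10 reads 0.831 and 0.842. Coding introns of only those genes whose 3' UTR intron also reached 10 reads, 152 uninduced and 42 induced, had 0.869 and 0.750. Full splicing, a coSE of 1, was seen at 20.8% and 27.8% of members and at 30.9% and 33.2% of coding introns.

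With reads added over all members, 1633 of 1948 were spliced in the uninduced pool, a coSE of 0.838 (95% Wilson interval 0.821 to 0.854). The induced pool had 570 of 724 spliced, a coSE of 0.787 (0.756 to 0.816). The coding introns of the same genes stood at 0.864 (0.859 to 0.869) and 0.883 (0.877 to 0.888). The difference, members minus coding introns, was -0.0259 in the uninduced pool (95% Newcombe interval -0.0437 to -0.00939). For the induced pool it was -0.0956 (-0.127 to -0.0668). These intervals cover counting error only and treat reads as independent, although 1 long read can cover several introns. The last coding introns of the same genes had 0.881 (uninduced) and 0.845 (induced). Those of all genes listed had 0.853 and 0.805, so last coding introns were lower in the induced pool too. Against the last coding intron of the same genes alone, the nearest in position, the differences were -0.0423 and -0.0576. With each gene's coding introns weighted by that gene's reads at its 3' UTR introns, they were -0.0571 and -0.103. Of the induced coding reads, 22.9% came from Ank1, an ankyrin of the red cell membrane whose 3' UTR intron had 0 reads. Of the induced reads at members, 15.9% came from Gm38394, which has no coding intron in the table. The induced difference was -0.0746 without Ank1 and -0.119 without Gm38394, both chosen after seeing the data.

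The size of the difference varied between classes of member. Constitutive members had a coSE of 0.845 and 0.879 in the uninduced and induced pools, and the coding introns of their genes 0.835 and 0.861. All 16 introns of Gm38394, which has no coding intron in the table, are in this class, with 105 of 115 induced reads spliced. Without them the difference from the coding introns was 0.0136 (-0.0198 to 0.0426) in uninduced and -0.00140 (-0.0563 to 0.0410) in induced reads. For constitutive members that are coding nowhere it was -0.00504 (-0.0414 to 0.0268) and -0.0382 (-0.0997 to 0.0112). These intervals all include 0. Members absent from some transcripts had 0.835 and 0.714, while the coding introns of their genes had 0.881 and 0.892. Among the coding introns of all member genes, those absent from some transcripts had 0.878 and 0.844, and constitutive ones 0.856 and 0.896. Among members that another transcript covers as exon, coSE was 0.820 (uninduced) and 0.635 (induced; 0.565 to 0.700). The coding introns covered in that way had 0.894 and 0.806. A read from a transcript that keeps the interval as exon is an unspliced read in this count, and its share was not measured here. Members coding in another transcript were at 0.932 and 0.925, and those coding nowhere at 0.800 and 0.712.

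Distance from the stop codon went with these classes. Members at most 50 nt away had a coSE of 0.826 and 0.746, and those farther away 0.893 and 0.890. The farther set is mostly introns that are coding in another transcript. Its 17 members that were coding nowhere had 18 of 35 reads spliced in the uninduced pool, a coSE of 0.514 (0.356 to 0.670), and 4 of 18 in the induced pool, 0.222 (0.0900 to 0.452). None of the 17 had 10 reads in a pool. The members coding nowhere and at most 50 nt away had 0.808 and 0.732. By length, members of up to 150, up to 500, up to 2000 and over 2000 nt, in 4 classes that do not overlap, had a coSE of 0.793, 0.815, 0.796 and 0.937 in the uninduced pool, where the longest class stood apart from the other 3. Among induced reads these classes had 0.619, 0.733, 0.760 and 0.939. The coding introns had 0.790, 0.855, 0.864 and 0.918 (uninduced) and 0.791, 0.856, 0.880 and 0.952 (induced).

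**Figure D2:**
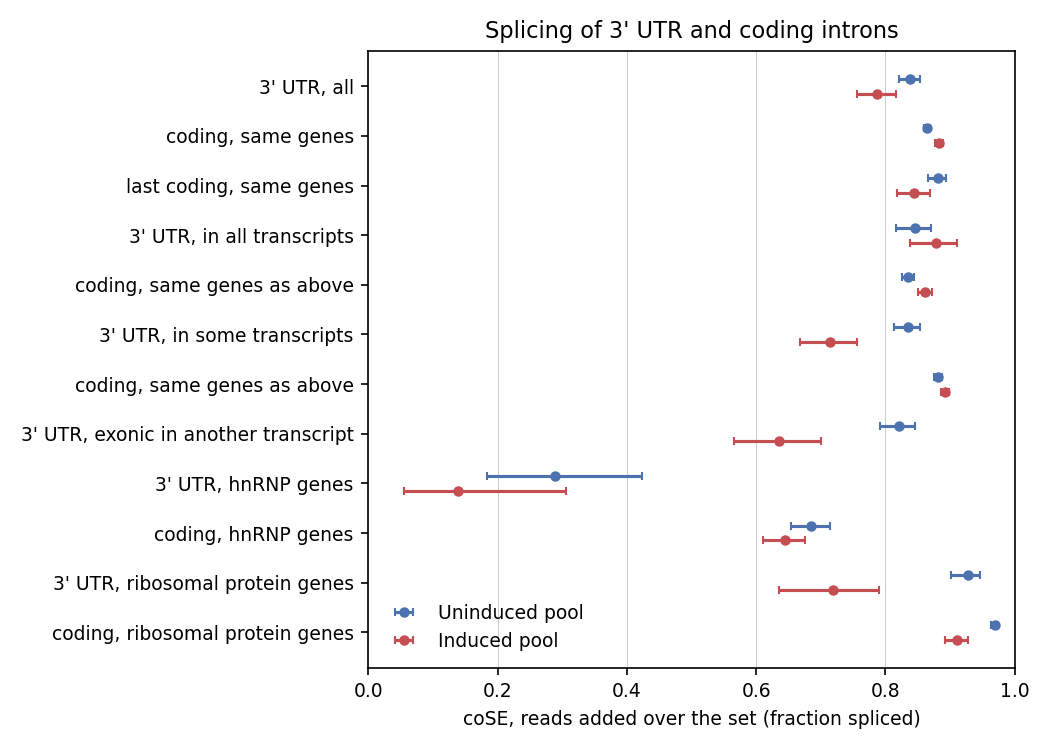
coSE (fraction of reads spliced, reads added over each set) of classes of 3' UTR introns and of the matching coding introns, uninduced in blue and induced in red, with bars for the 95% Wilson interval. The hnRNP genes stand lowest, at 0.288 and 0.138, and the intervals of members in all spanning transcripts overlap those of the coding introns of their genes.

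Role by role, the hnRNP genes, whose products bind pre-mRNA and steer its splicing, had the least spliced 3' UTR introns of the groups listed. Their 6 members, in Hnrnpa1, Hnrnpa2b1, Hnrnpa3, Hnrnpd, Hnrnpdl and Hnrnph1, had 15 of 52 reads spliced in the uninduced pool, a coSE of 0.288 (0.183 to 0.423). Of the induced reads 4 of 29 were spliced, a coSE of 0.138 (0.0550 to 0.306). The coding introns of these genes were at 0.685 and 0.644. Each of the 6 introns is missing from some annotated transcripts of its gene. In the uninduced pool the values were 5 of 9 reads at Hnrnpa1, 2 of 9 at Hnrnpa2b1, 3 of 15 at Hnrnpa3, 1 of 13 at Hnrnpdl and 4 of 6 at Hnrnph1, with none at Hnrnpd. Hnrnph1 intron 14 had 3 of 13 reads spliced in the induced pool, beside 0.357 for its coding introns. The 2 introns of this family tested in the uninduced pool, in Hnrnpa3 and Hnrnpdl, did not pass the threshold (adjusted p = 0.861 and 0.0902, Fisher's exact test with Benjamini-Hochberg adjustment).

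The 5 ribosomal protein genes, Rpl7 and Rpl9 of the large and Rps3, Rps25 and Rps28 of the small subunit, had the most spliced 3' UTR introns of the listed groups in the uninduced pool. Their members had 483 of 521 reads spliced in the uninduced pool, a coSE of 0.927 (0.901 to 0.946), and 92 of 128 in the induced pool, 0.719 (0.635 to 0.789). Their coding introns were at 0.970 and 0.911. These genes supplied many of the reads at 3' UTR introns, with Rps3 alone giving 214 of the 1948 uninduced reads. Without them, the remaining members were at 0.806 and 0.802.

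Other roles were thinly covered. Among the listed factors of nonsense-mediated decay only Upf1, the helicase of that pathway, had a member, with 0 uninduced reads and 1 induced read. Among SR splicing factors only Srsf2 had one, with 1 of 2 and 1 of 4 reads spliced. Both translation factor genes with a member, Eif3b and Eif5a, had 16 of 19 reads spliced together in the uninduced pool and 3 of 5 in the induced pool. None of the red cell genes on the list used had a 3' UTR intron in the table; among these were the globin genes Hba-a1, Hba-a2, Hbb-bs and Hbb-bt, with Alas2, Slc4a1, Gata1, Klf1, Tal1, Nfe2, Epor, Tfrc, Ftl1 and Fth1. Ank1, which is not on that list, had a 3' UTR intron, number 42, with 0 reads in either pool.

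Each intron was then set against the coding introns of its own gene in the same pool. With at least 10 reads on both sides, 50 members could be tested in the uninduced pool, and 6 (12.0%) were less spliced than their gene's coding introns while 0 were more spliced (Fisher's exact test with Benjamini-Hochberg adjustment over 9619 introns). Over all introns tested, 5.05% were lower and 1.55% were higher; among last coding introns 31 of 591 (5.25%) were lower. At an unadjusted p under 0.05 in the same test, 8 of the 50 members were lower and 1 was higher, beside 984 and 499 of all 9619 introns. In the induced pool 2 of 15 members (13.3%) were lower and 0 higher, against 4.60% and 1.52% of the 6113 introns tested. There, 4 of the 15 were lower and 0 higher at an unadjusted p under 0.05, beside 633 and 327 of all 6113 introns. Introns of a gene share reads, so these tests describe the reads of the pools.

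Ccdc186, which encodes a coiled-coil protein, was spliced at its coding introns and mostly unspliced at its 3' UTR intron. Its coding introns 1 to 3 had 46 of 47, 39 of 45 and 22 of 22 reads spliced in the uninduced pool, and its 3' UTR intron 4 had 4 of 20, a coSE of 0.200 against 0.939 (adjusted p = 8.18e-10, Fisher's exact test). This intron lies 44 nt after the stop codon and is present in 1 of 2 annotated transcripts, the other covering it as exon. Only 2 reads, both unspliced, were seen in the induced pool.

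Rac2 was the 1 called gene whose 3' UTR intron is in every spanning transcript, of which the annotation has 1. In the uninduced pool its coding introns 1 to 5 had coSE values of 0.983, 1, 0.978, 0.979 and 0.925. Intron 6, whose junction is 2 nt after the stop codon, had 23 of 37 reads spliced, a coSE of 0.622 (adjusted p = 1.15e-07, Fisher's exact test). The difference from intron 5 alone passed too (adjusted p = 0.0345, Fisher's exact test). Intron 6 also has the lowest 5' site score of the 31 members that have a score, in the sequence gggGTatta printed above. In the induced pool both of its 2 reads were unspliced.

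Vamp5, a vesicle fusion protein of the VAMP family, had 0 of 14 reads spliced at intron 3, 13 nt after the stop codon, which allows a share of up to 0.214 (3 counts). Its coding introns 1 and 2 had 8 of 8 each (adjusted p = 6.61e-07, Fisher's exact test). The intron is in 1 of 3 annotated transcripts, and the other 2 cover it as exon. No induced read covered it.

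Top2a, the DNA topoisomerase of dividing cells, had 8 of 18 reads spliced at intron 35 (coSE 0.444), where its coding introns together had 914 of 1029 (0.888; adjusted p = 0.000357, Fisher's exact test). The coding intron just before it, intron 34, had 14 of 20 (0.700), and against that intron alone the difference did not pass (adjusted p = 0.643, same exact test). Rps25 had 62 of 68 reads spliced at intron 4 (0.912) and 476 of 480 at its coding introns (0.992; adjusted p = 0.00989, Fisher's exact test). Against its intron 3, at 103 of 106, it did not pass either (adjusted p = 0.590, same exact test). Nptn, a membrane glycoprotein of the immunoglobulin family, had 5 of 10 at intron 7 and 83 of 91 at its coding introns (adjusted p = 0.0442, Fisher's exact test). With a minimum of 5 reads the Nptn value became 0.0704. The gap from the coding introns was widest at Vamp5 (-1) and narrowest at Rps25 (-0.0799) among these 6.

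In the induced pool the called introns were in Hnrnpa2b1 and Rps28. Hnrnpa2b1 had 0 of 11 reads spliced at intron 9, which allows a share of up to 0.273 (3 counts), and 326 of 379 at its coding introns (0.860; adjusted p = 1.16e-07, Fisher's exact test). Its coding introns 7 and 8, at 4 of 9 and 3 of 8 reads, were the least spliced of that gene's coding introns in the induced pool. Rps28 had 3 of 19 at intron 3 and 39 of 59 at its coding introns (0.661; adjusted p = 0.00477, Fisher's exact test).

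**Figure D3:**
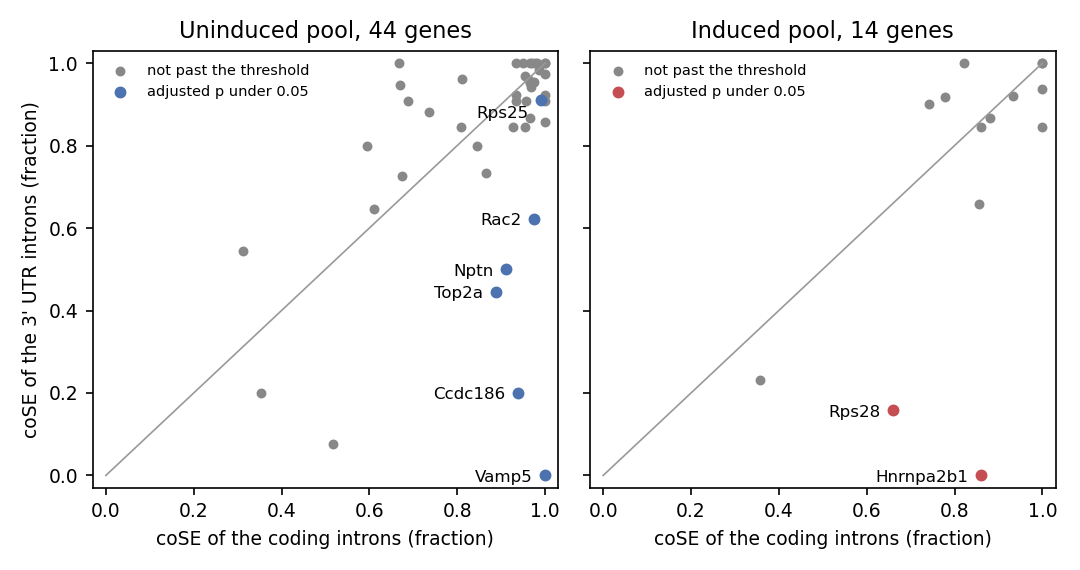
coSE (fraction) of the 3' UTR introns of a gene against that of its coding introns, 1 point per gene with at least 10 reads on both sides, uninduced on the left and induced on the right; coloured genes have an intron past the threshold. The points crowd near the upper right corner and all coloured genes lie below the line of equal values.

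Gene by gene, the difference between 3' UTR and coding introns was small in most genes. Of 44 genes with at least 10 reads on both sides in the uninduced pool, 25 were lower, 17 higher and 2 equal, with a median difference of -0.0123. Of 14 genes in the induced pool 9 were lower, 3 higher and 2 equal, with a median of -0.0136. The mean differences were -0.0601 and -0.105. Differences beyond 0.2 were seen in 6 genes below and 5 above in the uninduced pool, and in 2 below and 0 above in the induced pool.

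Against the last coding intron alone, 45 members were tested in the uninduced pool, and 2 were lower and 2 higher. Over all 2974 introns tested in this way, 2.15% were lower and 4.64% higher. Of 14 members tested in the induced pool 1 was lower, Rps28 intron 3 (adjusted p = 0.00712, Fisher's exact test), and 0 higher, against 3.94% and 4.80% of 1041 introns. In the uninduced pool Ccdc186 and Rac2 were the lower ones. Rbm3, a cold-induced RNA-binding protein, had 15 of 17 reads spliced at its 3' UTR intron 6 (0.882) and 8 of 33 at the last coding intron (0.242; adjusted p = 0.000857, Fisher's exact test). Spcs1, a subunit of the signal peptidase, had 6 of 11 (0.545) against 0 of 16 (adjusted p = 0.0290, same exact test). In these genes the last coding intron was the less spliced of the pair. Against all of their coding introns, at 0.735 and 0.313, neither gene passed (adjusted p = 0.727 and 0.781, same exact test).

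Several members were spliced in nearly every read. Hsbp1, a binding partner of heat shock factor, had 62 of 62 reads spliced at intron 3 in the uninduced and 21 of 21 in the induced pool. Cox6c, a cytochrome c oxidase subunit, had 63 of 64 and 13 of 13. The 3 introns of Glo1, the glyoxalase that detoxifies methylglyoxal, lie 109, 177 and 267 nt after the stop codon of its named decay-target transcript and are coding in other transcripts. They had 57 of 59, 49 of 50 and 42 of 43 reads spliced in the uninduced pool and 30 of 34, 15 of 15 and 15 of 15 in the induced pool.

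Nras, the small GTPase, had a pair of members, 4 and 46 nt after the stop codon. Intron 5 had 20 of 24 uninduced and 7 of 7 induced reads spliced, and intron 6, the shortest member at 76 nt, had 20 of 20 and 6 of 8. Ost4, a subunit of the oligosaccharyltransferase, had 19 of 26 and 6 of 8. Of the 21 members with at least 20 uninduced reads, the 5 lowest coSE values were those of Ccdc186, Rac2, Ost4, Nras intron 5 and Rps28.

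Between the pools, 13 members had at least 10 reads in each. Of these, 7 were lower, 4 higher and 2 equal in the induced pool, with a median difference of -0.0333, where the median over all 4403 introns tested was 0. Of the 13, 2 passed the threshold, both lower in the induced pool (Fisher's exact test with Benjamini-Hochberg adjustment over the 4403 introns). Among all introns tested 1.25% were lower, 0.363% higher and 1.61% called in either direction.

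Rps28 intron 3 had the larger fall, from 38 of 45 reads to 3 of 19 (adjusted p = 0.000140, Fisher's exact test). It is an 80 nt intron found in 1 of the 7 annotated transcripts that span it, and 2 of them cover it as exon. Both coding introns of the gene were lower in the induced pool as well, intron 1 at 154 of 162 and 19 of 30 reads and intron 2 at 162 of 169 and 20 of 29 (adjusted p = 0.00181 and 0.00662, same exact test). In the uninduced pool the 3' UTR intron differed from the coding introns by -0.110, which did not pass (adjusted p = 0.106, within-gene exact test).

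Rpl9 intron 7 fell from 99 of 109 reads (0.908) to 27 of 41 (0.659; adjusted p = 0.0447, Fisher's exact test). It did not pass with a minimum of 5 reads (adjusted p = 0.108) or with no minimum (0.387) in the same exact test. The coding introns 2 to 6 of Rpl9 spanned 0.930 to 0.962 (uninduced) and 0.750 to 0.911 (induced), all lower in the induced pool and none past the threshold. Within the induced pool, values were lower toward the 3' end, from 0.897 at intron 4 to 0.824, 0.750 and 0.659 at introns 5, 6 and 7.

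**Figure D4:**
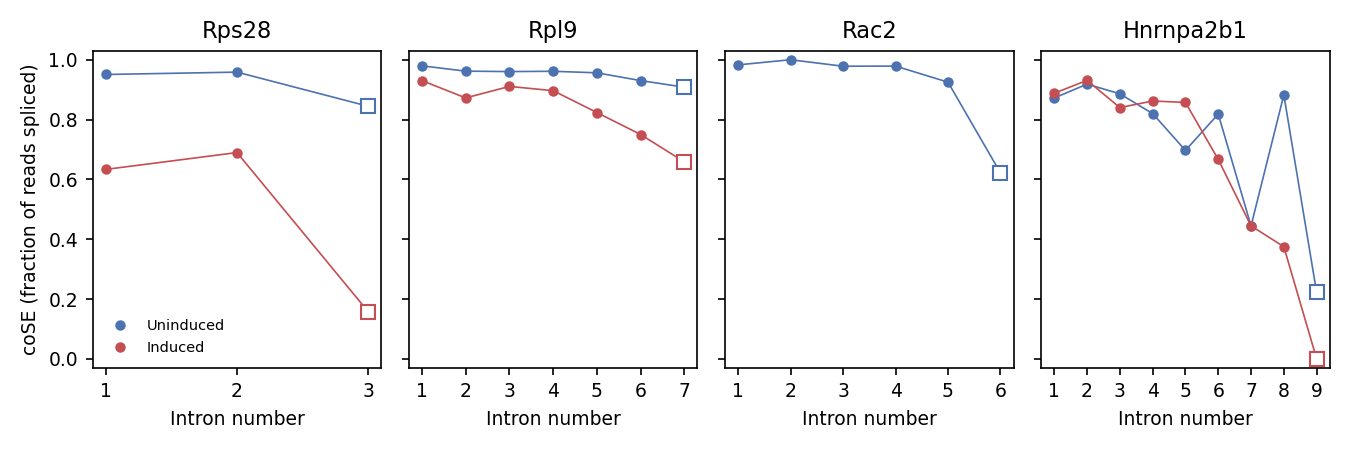
coSE (fraction of reads spliced) by intron number in Rps28, Rpl9, Rac2 and Hnrnpa2b1, uninduced in blue and induced in red, with open squares for the 3' UTR intron; Rac2 is drawn for the uninduced pool only. The square is the lowest point of every line, and in Rps28 the whole induced line lies under the uninduced one.

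The other 11 members had an adjusted p of 1 (Fisher's exact test). They were Rps3 intron 6, with 204 of 214 and 46 of 50 reads spliced, the 3 Glo1 introns, Hsbp1 and Cox6c above, and 5 more. Cox7c, another cytochrome c oxidase subunit, had 24 of 26 and 11 of 13. Ndufc1, of respiratory complex I, had 19 of 19 and 11 of 11. Selenow, a small selenoprotein, had 15 of 15 and 11 of 12, and Smtn, the actin-binding smoothelin, 25 of 26 and 11 of 13. Ybx3, a Y-box nucleic acid binding protein, had 8 of 11 and 9 of 10. Intervals at this depth are wide, for example 0.434 to 0.903 and 0.596 to 0.982 at Ybx3. The 3' UTR intron of Rps3 was at 0.953 and 0.920, while its coding intron 4 went from 0.980 in uninduced to 0.848 in induced reads (adjusted p = 0.000716, Fisher's exact test).

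**Figure D5:**
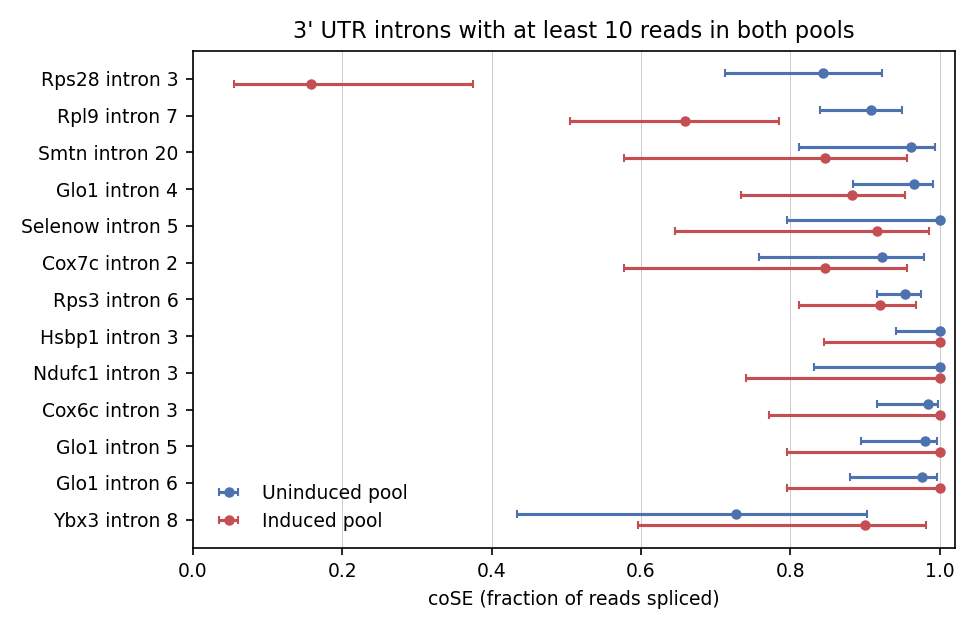
coSE (fraction of reads spliced) of the 13 members with at least 10 reads in both pools, uninduced in blue and induced in red, with bars for the 95% Wilson interval. Intervals are separate for Rps28 intron 3 and Rpl9 intron 7 and overlap for the other 11.

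Splicing intermediates, taken here as RNAs after the first step of splicing and before the exons are joined, were counted in the other deposited table, whose NIC value is intermediates over intermediates plus spliced reads. With reads added over the members listed, intermediates were 17 of 924 in the uninduced pool, 1.84% (1.15 to 2.93%, 29 introns). They were 12 of 141 in the induced pool, 8.51% (4.94 to 14.3%, 7 introns). The coding introns of those genes with a member listed in the same pool were at 1.90% (1.59 to 2.28%, 104 introns of 25 genes) and 1.88% (1.14 to 3.07%, 23 introns of 6 genes). Over the listed coding introns of all 222 genes the shares were 2.32% and 3.71%, and those of all introns listed there were 2.71% and 4.35%. Rps3 intron 6 gave 6 of the 17 and 6 of the 12, with 6 of 207 and 6 of 51 reads. Without Rps3 the members' shares were 1.53% and 6.67%, and the coding introns were not counted again without that gene. Next came Acsl5 intron 21, of an acyl-CoA synthetase, with 3 of 13 uninduced reads, Glo1 intron 4 with 3 of 32 induced reads, Glo1 intron 5 with 2 of 35 and Rpl7 intron 6 with 2 of 74 uninduced reads, and Hnrnph1 intron 14 with 2 of 5 induced reads. Of the 5 members present in both pools 0 differed in this share between pools by Fisher's exact test with Benjamini-Hochberg adjustment, where 0.0981% of the 2039 introns tested did. Rps3 came nearest among the 5 (unadjusted p = 0.0159, adjusted p = 1, exact test), the only 1 of them with an unadjusted p under 0.05.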

How the data were processed

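Tables deposited by the authors were used, with 1 line per intron and condition. Spliced reads and unspliced reads per intron are raw counts per the file headers. The other table holds the authors' count of spliced reads and of intermediates and the NIC fraction. It also has the authors' percent of G and C bases and their score of each splice site, from a 9-base 5' and a 23-base 3' sequence. The submitters' processing notes name cutadapt, minimap2, SAMtools, bedtools and Bowtie and the builds mm10 and dm3, with no role given. The counting program, the filters and which runs were pooled are not given in the sources used here. The pools were matched to the long-read groups by their condition names.

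Intron starts were raised by 2 and ends lowered by 1 to give 1-based positions, and each intron was placed in its named transcript in GENCODE mouse release 21, where 213 of the 222 transcripts of the member genes had the same version; 26 introns of the table were no intron of that transcript and were left out. coSE was computed with reads added over introns, all depths included. Per-intron tests used two-sided Fisher's exact tests with Benjamini-Hochberg adjustment over the whole table, a minimum of 10 reads on each side and a threshold of 0.05, in Python 3.11.15 with scipy 1.17.1 and pandas 2.3.3; the code was tested on simulated data. Intervals are 95% Wilson or Newcombe intervals and floors are 3 counts. Per the labels, PCR was used to make the libraries, and molecular identifiers are not stated, so both cover counting error only. Whether replicates came from separate cultures is not stated.

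Members named in the text are all with at least 10 reads in both pools, all past a threshold, the 5 highest and 5 lowest coSE values at 20 reads or more in a pool, and the 5 with the most intermediates; sequences are shown, where the table holds them, for members past a threshold and the 5 deepest. Rbm3 and Spcs1, and the hnRNP, Upf1, Srsf2, Eif and Gm38394 introns below these limits, were named after their values were seen or as members of role lists. The introns, the role lists and the tests were chosen with earlier results of these data known. Alternatives changed the minimum of reads, the test, the coding introns compared and the members included.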

Additional observations from a re-analysis of the deposited data

How the results depend on the processing

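The difference in coSE between 3' UTR and coding introns, reads added, was below 0 under all alternatives run except 4. Members in all spanning transcripts gave 0.0107 (uninduced) and 0.0176 (induced), or 0.0136 and -0.00140 without Gm38394 (chosen after seeing the data), and an equal weight per intron at 10 reads or more, with the coding introns of the genes whose members reach 10 reads, gave 0.0312 (induced). In the uninduced pool, where the value was -0.0259, it moved to -0.0557 with that equal weight, -0.0455 with transcripts of the annotation's version only, -0.0403 with protein-coding transcripts only, -0.0497 and -0.0514 with minimums of 10 and 20 reads. In the induced pool, where it was -0.0956, it moved to -0.0576 with the last coding intron and -0.0487 with a minimum of 10 reads. Alternatives chosen after seeing the data gave -0.0178 and -0.0609 with an equal weight and the coding introns of all member genes, -0.0571 and -0.0578 in the uninduced pool with coding and last coding introns weighted by the gene's reads at members, -0.0543 and -0.169 for members coding in no transcript, -0.00504 and -0.0382 for those of them in all spanning transcripts (uninduced and induced), and -0.136 in the induced pool for members at most 50 nt from the stop codon. The cause of these shifts was not tested.

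Against coding introns in the uninduced pool, 6 of 50 tested members were called. The count was 3 of 20 tested with a minimum of 20 reads, all among the 6. It was 4 of 45 with the last coding intron (Ccdc186 and Rac2 of the 6, and Rbm3 and Spcs1, which were higher). It was 1 of 17 with introns in all spanning transcripts, which was Rac2. With a minimum of 5 reads it was 6 of 69, with Hnrnpa2b1 (adjusted p = 0.00372, Fisher's exact test) in place of Nptn. In the induced pool, where 2 of 15 were called, the count was 1 of 4 with a minimum of 20 reads. That was Rpl9 intron 7 (adjusted p = 0.0492, Fisher's exact test) and neither of the 2. The count was 1 of 14 with the last coding intron (Rps28), 1 of 13 without hnRNP genes (chosen after seeing the data) and 0 of 5 with introns in all spanning transcripts. Between the pools, where 2 of 13 were called, it was 1 of 42 with a minimum of 5 reads and 1 of 120 with none (Rps28 in both). It was 1 of 4 with a minimum of 20 (Rpl9) and 0 of 5 with introns in all spanning transcripts. With at most 17 tested, these counts cannot show whether introns in all spanning transcripts are called less often. A minimum of 20 reads leaves out Rps28 and Hnrnpa2b1, and the last coding intron of Hnrnpa2b1, Vamp5 and Nptn had under 10 reads. The chi-square test gave the same counts as Fisher's exact test in all 3 comparisons.

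No paired analysis was possible because the tables give each condition as 1 pool, and leaving out replicates was not run for the same reason. Depth limits what can be compared, since 191 of 249 members had fewer than 10 reads in both pools.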
